A study of Homo sapiens with 48 samples.

Results

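ISL1 and NR2F1 were described here across RASL-Seq libraries of embryoid bodies, undifferentiated stem cells and directed lineage cultures. In RASL-Seq, 2 DNA probes anneal to neighbouring stretches of 1 mRNA, a ligase joins them, and the joined products are amplified and sequenced, so each read counts for 1 probe pair, called a probe below. The members were all probes of the panel whose symbol was ISL1 or NR2F1, which gave 3 of 1113 probes and 2 of 452 genes. The genes were selected on their read counts, being far higher in embryoid bodies than in undifferentiated cells, so that contrast, and any other with embryoid bodies or undifferentiated cells against another culture, is given as a description with no test. The tests concern the 2 embryoid body arms, the 3 directed lineages, and the relation of the 2 genes to each other.

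The cells of all groups came from WA09, an established line of human embryonic stem cells also known as H9 and labelled as normal in genotype, so each group rests on 1 line. Embryoid bodies are clumps of stem cells that differentiate in suspension. They were started at 20000 cells per well in E6 medium and harvested at 7 days. For the first 24 hours one arm received CEPT, a small molecule cocktail that protects dissociated stem cells (CEPT EB, 16 libraries), and the other arm received Y-27632, a single small molecule (Y27 EB, 16 libraries). Undifferentiated cells without treatment (hESC) had 4 libraries. The directed controls had 4 libraries each. Ectoderm was made over 6 days in E6 medium by blocking BMP and TGF-beta receptors, with 100 nM LDN-193189 plus 2 µM A83-01, and mesoderm and endoderm were made with commercial kits over 5 days. The labels do not say whether libraries of a group came from separate cultures, so p-values measure the spread between these libraries, which may be technical.

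ISL1 encodes a LIM-homeodomain transcription factor known for its part in motor and sensory neurons, in second heart field progenitors and in pancreatic endocrine cells. NR2F1, also called COUP-TFI, encodes an orphan nuclear receptor that acts in patterning of the neocortex and in neural crest cells, and NR2F2 (COUP-TFII) is its close paralog. Both factors bind DNA, the first through a homeodomain and the second through zinc fingers that recognise repeats of AGGTCA.

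ISL1 (gene ID 3670) lies on the plus strand at chr5:51383448-51394730, and NR2F1 (gene ID 7025) lies on the plus strand at chr5:93583222-93594611, both in RefSeq GRCh38.p14. ISL1 was read by probe 395 at position 758 and probe 396 at position 1217 of transcript NM_002202, which are 459 bases apart. NR2F1 was read by probe 1128 alone, at position 2869 of NM_005654. The probes were not assigned to exons. Both genes matched the RefSeq promoter table, with 1 start for ISL1 and 2 starts for NR2F1, of which the upstream one was used. The 190 bases from 250 to 61 bases before each start are shown because both genes were high in embryoid bodies and low in the other groups, with capitals on the letters of 5 motifs searched on both strands: CCAAT, the TATA box TATAAA, the homeodomain core TAATTA, the nuclear receptor element AGGTCA and the E-box CANNTG.
ISL1 (chr5:51383198-51383387, plus strand): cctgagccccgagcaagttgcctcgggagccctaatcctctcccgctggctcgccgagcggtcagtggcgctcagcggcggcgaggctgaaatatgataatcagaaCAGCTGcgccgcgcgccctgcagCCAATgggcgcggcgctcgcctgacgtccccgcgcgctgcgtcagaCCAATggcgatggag
NR2F1 (chr5:93582972-93583161, plus strand): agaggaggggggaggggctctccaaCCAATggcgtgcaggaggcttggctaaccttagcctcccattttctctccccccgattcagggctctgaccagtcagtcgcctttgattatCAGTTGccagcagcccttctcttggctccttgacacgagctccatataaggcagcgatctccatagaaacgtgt
The ISL1 window held 2 CCAAT boxes and 1 E-box, and the NR2F1 window held 1 of each, with no overlap between matches. Neither window held the other 3 motifs as spelled. Bases nearer to the start than 61 were outside the windows, so a TATA box there could not be found. Among 35116 RefSeq promoter windows of the same length, 25.8% held a CCAAT box, 52.9% an E-box, 7.40% the TATA box, 3.59% the homeodomain core and 9.13% the nuclear receptor element. GC content was 68.4% in the ISL1 window and 55.8% in that of NR2F1.

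Library totals ranged from 379810 to 5577868 reads over the 48 libraries. The lowest was Y27 EB replicate 15, and all others had at least 1773969 reads. That library also stood apart in HAND1, a factor of mesoderm and heart, at 3789 CPM against at most 188 CPM in the other Y27 EB libraries. CPM are reads divided by the TMM-scaled library total, times 1000000, with scaling over all 48 libraries. Of the 9 pluripotency genes on the panel, all were detected in hESC, although POU5F1, a defining gene, reached only 5.43 to 12.4 CPM there while NANOG was at 1950 to 2392 CPM. POU5F1 had no read in ectoderm, and GDF3 had none there either. A probe with 0 reads in a library allows up to 3 reads expected there, and this limit covers counting error only, since PCR products were counted without molecular identifiers.

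Both genes were near background in hESC and reached high levels in each embryoid body library. ISL1 probe 395 had 0 reads in all 4 hESC libraries. In CEPT EB it ran from 575 to 1466 CPM with a median of 875 CPM (903 ± 229, SD, n = 16), and in Y27 EB from 806 to 1446 CPM with a median of 1118 CPM (1128 ± 215, SD, n = 16). Against a floor of 3 reads in each hESC library, its mean level was at least 560-fold higher in CEPT EB and at least 699-fold higher in Y27 EB. ISL1 probe 396 had 0, 1, 1 and 0 reads in the hESC libraries. It ran from 560 to 1283 CPM in CEPT EB (median 868) and from 688 to 1362 CPM in Y27 EB (median 1000). With the 2 reads of hESC, the ratio for this probe was 3247 in CEPT EB (exact Poisson 95% interval 899 to 26810) and 3859 in Y27 EB (1068 to 31864), which covers counting error of the hESC reads only. Thus every embryoid body library lay far above every hESC library for both ISL1 probes.

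NR2F1 probe 1128 had 0 reads in all 4 hESC libraries. It ran from 540 to 1377 CPM in CEPT EB (median 849) and from 681 to 1439 CPM in Y27 EB (median 985). The means were 853 ± 241 and 1000 ± 218 CPM (SD, n = 16 each), at least 529-fold and at least 620-fold above the floor in hESC. These contrasts chose the genes and are a description. In these bulk libraries, fewer cells of a type and less RNA per cell cannot be told apart.

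**Figure D1:**
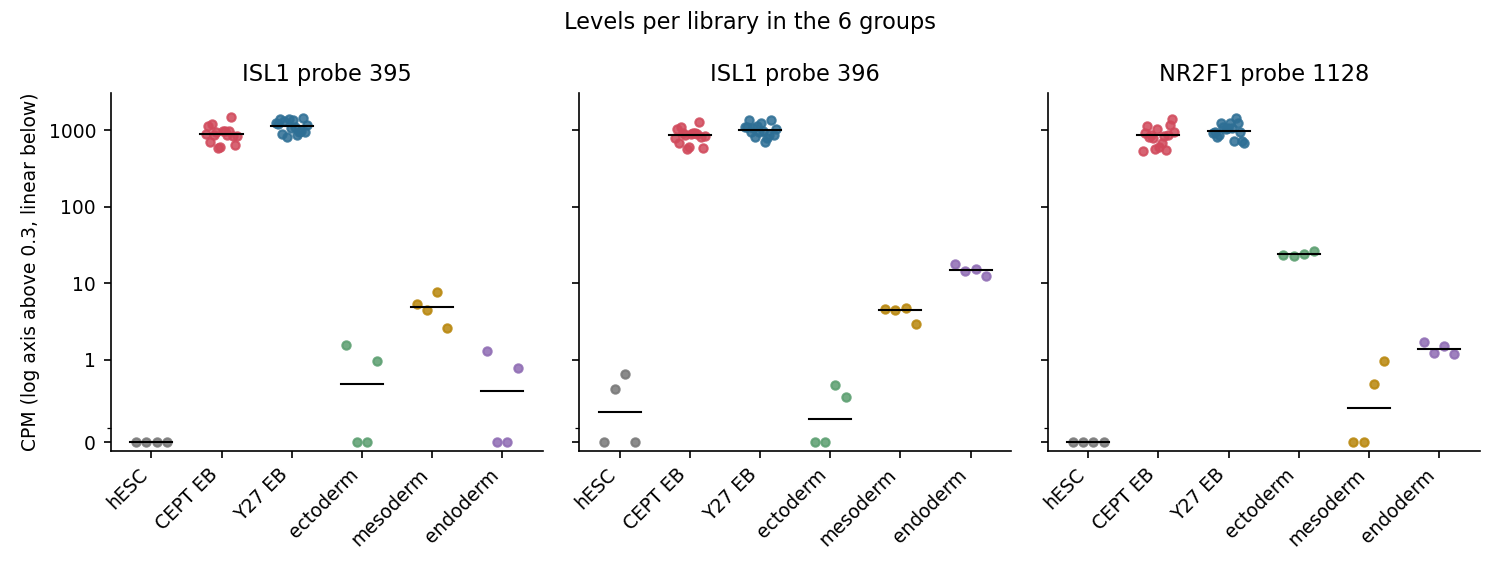
CPM of ISL1 probe 395, ISL1 probe 396 and NR2F1 probe 1128 in each of 48 libraries (points) by group, with group medians as lines, on a log axis that is linear below 0.3 so that zeros can be drawn. All embryoid body libraries sit above 500 CPM, while no hESC or directed lineage library reaches 30 CPM.

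The directed lineages had low levels, and they differed in which of the 2 genes was present. In ectoderm, NR2F1 was at 23.6, 22.6, 24.2 and 26.1 CPM in replicates 1 to 4 (24.1 ± 1.45, SD, n = 4; 52 to 81 reads). ISL1 in ectoderm had 4, 0, 0 and 3 reads for probe 395 and 0, 0, 1 and 1 reads for probe 396. In mesoderm the order was the other way, with 14, 13, 16 and 8 reads for ISL1 probe 395, 12, 13, 10 and 9 reads for probe 396, and 0, 0, 1 and 3 reads for NR2F1. In endoderm, NR2F1 had 4, 3, 3 and 3 reads, and ISL1 gave 42, 36, 30 and 32 reads with probe 396 but 3, 0, 0 and 2 reads with probe 395, so the probes of 1 transcript did not give the same picture there. The embryoid body means of NR2F1 were 35.3 times (exact Poisson 95% interval 31.3 to 40.0) and 41.4 times (36.7 to 46.9) the ectoderm level in CEPT EB and Y27 EB. For ISL1 probe 396 they were 56.9 times (48.2 to 67.6) and 67.6 times (57.3 to 80.4) the endoderm level.

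The order of levels for NR2F1 was Y27 EB, CEPT EB, ectoderm, endoderm, mesoderm and hESC. The 2 embryoid body arms overlapped, mesoderm overlapped hESC at 0 reads, and the other neighbours in this order did not overlap. Endoderm and mesoderm were separated only at the floor, with 3 or 4 reads against 0 to 3 reads per library. Their nearest libraries were at 1.17 and 0.97 CPM. In the lineage comparison, 71.0% of all tested probes did not overlap between these groups. For ISL1 probe 396 the order was Y27 EB, CEPT EB, endoderm, mesoderm, hESC and ectoderm. Here the arms overlapped, and so did hESC and ectoderm. For ISL1 probe 395 mesoderm followed the 2 arms at 4.97 ± 2.08 CPM (SD, n = 4), and ectoderm, endoderm and hESC overlapped at 0 reads.

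The lineage comparisons ask which directed culture carried more RNA of each gene. ISL1 probe 396 and NR2F1 were among 872 probes past the count filter, and ISL1 probe 395 did not pass. Calls were made at an adjusted p under 0.05 (edgeR, quasi-likelihood, Benjamini-Hochberg), and they were common. Between ectoderm and mesoderm 81.1% of all tested probes were called, 42.8% higher and 38.3% lower in ectoderm. Between ectoderm and endoderm 79.8% were called, 39.8% higher and 40.0% lower in ectoderm. Between mesoderm and endoderm 76.8% were called, 38.0% higher and 38.9% lower in mesoderm. NR2F1 was higher in ectoderm than in mesoderm, with a log2 fold change of 6.14 ± 0.42 (SE, adjusted p 7.01e-09). It was also higher in ectoderm than in endoderm (4.22 ± 0.35, adjusted p 5.09e-08). These fits rest on 260 reads in ectoderm, 4 in mesoderm and 13 in endoderm. NR2F1 passed the count filter only through ectoderm, where it is high, so it had to differ there, and these 2 calls are a description. As plain ratios of scaled reads they were 65.2 (exact 95% interval 25.1 to 241) over mesoderm and 17.4 (9.99 to 33.1) over endoderm, where the interval covers counting error only.

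The difference of NR2F1 between mesoderm and endoderm was near the limit of the assay. Its log2 fold change, mesoderm over endoderm, was -1.93 ± 0.64 (SE, adjusted p 0.0141, edgeR). The ratio of scaled reads was 3.75 (exact 95% interval 1.16 to 15.8). The call was lost on leaving out mesoderm replicate 1 or replicate 2, both at 0 reads, where adjusted p rose to at most 0.0592.

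ISL1 probe 396 had at most 13 reads in any directed library outside endoderm. It was lower in ectoderm than in mesoderm (log2 fold change -3.87 ± 0.56, SE, adjusted p 1.94e-05, edgeR) and lower in ectoderm than in endoderm (-5.90 ± 0.47, adjusted p 2.90e-08). It was lower in mesoderm than in endoderm (-2.03 ± 0.28, adjusted p 1.47e-05). The probe passed the count filter only through endoderm, where it is high, so these 2 calls against endoderm are a description. All 4 endoderm libraries lay above all 4 mesoderm libraries for this probe, and such separation held for 71.0% of the probes tested in that comparison. The libraries of the other 2 lineage pairs did not overlap for this probe or for NR2F1, nor for 73.4% of all probes between ectoderm and mesoderm and 77.5% between ectoderm and endoderm. Probe 395 of the same transcript went the other way. It had 51 reads in mesoderm and 5 in endoderm, a ratio of scaled reads of 8.85 (exact 95% interval 3.55 to 28.4). Without the count filter its log2 fold change, mesoderm over endoderm, was 2.92 ± 0.79 (SE, adjusted p 0.00394, edgeR).

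The 2 ISL1 probes therefore gave opposite orders of mesoderm and endoderm. Probe 396 made up 48.6% of ISL1 reads in CEPT EB (exact 95% interval 48.2 to 48.9) and 47.2% in Y27 EB (46.9 to 47.4), with single libraries between 44.6% and 51.8%. In mesoderm its share was 46.3% of 95 reads (36.0 to 56.8). In endoderm it was 96.6% of 145 reads (92.1 to 98.9), and each of the 4 endoderm libraries had at least 93.3%. What RNA gave the endoderm reads of probe 396 was not tested.

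NR2F1 was set beside its paralog NR2F2. NR2F2 probe 1129, at position 3446 of NM_021005, had 646, 758, 599 and 724 CPM in the ectoderm libraries (682 ± 72.3, SD, n = 4), where NR2F1 was at 22.6 to 26.1 CPM. The median ratio of NR2F1 to NR2F2 reads was thus 0.0367 in ectoderm, and 0.690 in CEPT EB and 0.822 in Y27 EB. Each embryoid body library had a ratio above 0.58, and each ectoderm library one below 0.042. Levels of different genes depend on their probes, so the ratio is comparable between groups and not as a ratio of molecules. Whether the NR2F1 probe could also count RNA of NR2F2 or of the antisense gene NR2F1-AS1 was not tested, and this bears on the ratio and on the correlation of the 2 paralogs.

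**Figure D2:**
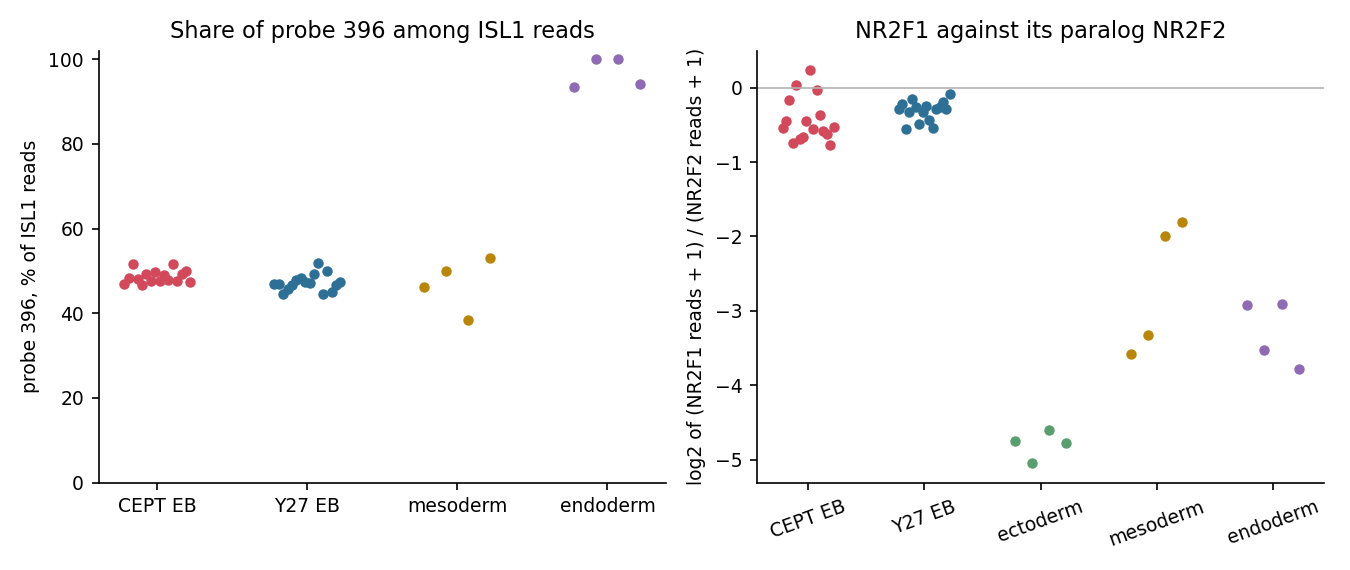
Left, share of probe 396 in the ISL1 reads of each library (percent); right, log2 ratio of NR2F1 to NR2F2 reads, each with 1 read added, per library. Endoderm libraries lie at 93.3% or more on the left, and ectoderm libraries lie lowest on the right.

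The comparison of the arms asks whether first-day treatment with CEPT or Y-27632 left ISL1 and NR2F1 at different levels 7 days after plating. All 3 probes were lower in CEPT EB, and only ISL1 probe 395 passed the test. Over all 867 probes tested, 23.6% were called, 10.6% higher and 13% lower in CEPT EB, and 55.1% had a log2 fold change below 0. ISL1 probe 395 had a log2 fold change of -0.34 ± 0.12 (SE, adjusted p 0.0331, edgeR), and its level in 13 of 16 CEPT EB libraries was under the median of Y27 EB. ISL1 probe 396 had -0.26 ± 0.11 (adjusted p 0.0752, 13 of 16), and NR2F1 had -0.24 ± 0.13 (adjusted p 0.197, 12 of 16). NR2F2 was at -0.07 ± 0.14 (adjusted p 0.770). The arms overlapped for all 3 member probes, as they did for all but 0.231% of the probes tested.

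The call on ISL1 probe 395 was not stable. It held in 6 of 13 alternative settings, and it was lost with median-ratio size factors (-0.25, adjusted p 0.125), with DESeq2 (-0.25, adjusted p 0.116) and with both ISL1 probes summed (-0.30, adjusted p 0.0574). Leaving out 1 library at a time ended it for 16 of the 32 libraries, namely CEPT EB replicates 1, 3, 5, 7, 8, 10, 11 and 15 and Y27 EB replicates 1, 3, 5, 7, 9, 10, 13 and 14, with adjusted p from 0.0107 to 0.0921 over the 32 fits. The direction did not change. All 3 probes were below 0 in each of the 13 settings, from -0.80 to -0.25 for probe 395, -0.71 to -0.18 for probe 396 and -0.72 to -0.17 for NR2F1. All 3 passed the test with library totals alone (-0.65, -0.56 and -0.55) and with reference gene scaling (-0.80, -0.71 and -0.72), where the median of all probes also moved, from -0.04 to -0.36 and -0.51. Of 11 reference probes over 4 genes, 1 was called in the edgeR fit, RPL13A probe 608 (0.75), and the median of the 11 was 0.17. Without CEPT EB replicate 13 and Y27 EB replicate 15, a setting chosen after the data were seen, probe 396 was called too (-0.33, adjusted p 0.0199).

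**Figure D3:**
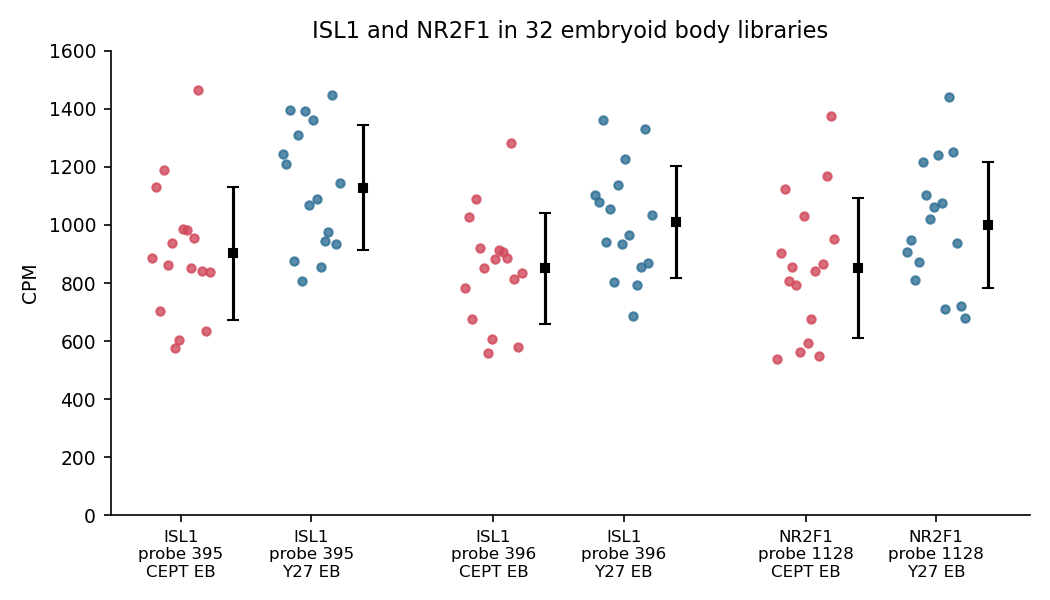
CPM of the 3 member probes in each embryoid body library (points), with mean and SD of 16 libraries (squares and bars). The arms overlap for each probe, with means of 903 and 1128 CPM for ISL1 probe 395, 851 and 1011 for ISL1 probe 396, and 853 and 1000 for NR2F1.

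**Figure D4:**
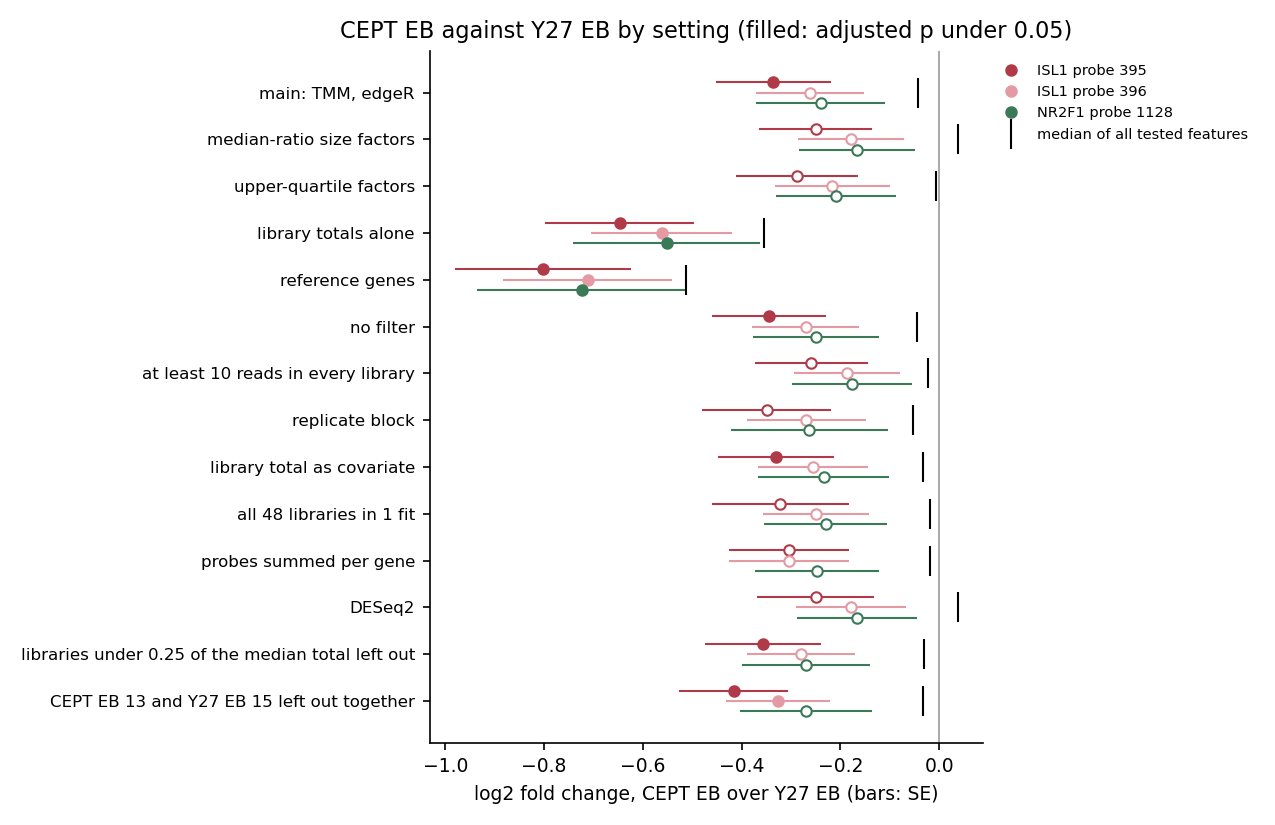
Log2 fold change of each member probe, CEPT EB over Y27 EB, with SE, under TMM scaling with edgeR and 13 alternatives; filled points have an adjusted p under 0.05 and black ticks mark the median of all tested probes or genes. All values are below 0, and all 3 probes are called only with library totals alone and with reference genes.

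The balance of the 2 genes did not move measurably between the arms. The log2 ratio of ISL1 to NR2F1 reads, which needs no scaling, spanned -0.18 to 1.75 in the CEPT arm and 0.27 to 1.77 in the Y27 arm. The means were 1.06 ± 0.58 and 1.11 ± 0.41 (SD, n = 16 each). The difference of -0.05 did not pass a two-sided permutation test (p 0.776). ISL1 reads outnumbered NR2F1 reads in 15 of 16 CEPT EB and 16 of 16 Y27 EB libraries, with 2 probes counted for ISL1 and 1 for NR2F1.

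Within an arm, libraries with more ISL1 did not have measurably more or less NR2F1. Over 16 CEPT EB libraries Pearson's r of log2 CPM was -0.12 (permutation p 0.654, adjusted 0.654 over the 2 arms) and Spearman's rho was -0.23 (permutation p 0.386, adjusted 0.772). Over 16 Y27 EB libraries r was 0.14 (permutation p 0.605, adjusted 0.654) and rho was 0.07 (permutation p 0.798, adjusted 0.798). Without the 2 libraries farthest from the median ISL1 level, r was -0.49 in CEPT EB (replicates 13 and 7 left out, permutation p 0.0747, n = 14) and 0.02 in Y27 EB (replicates 6 and 11 left out, permutation p 0.943, n = 14). The result depended on scaling. With library totals alone r was 0.45 in CEPT EB (permutation p 0.0797) and 0.64 in Y27 EB (permutation p 0.00789), and with median-ratio factors it was -0.26 and -0.06. The 2 ISL1 probes, in contrast, varied together with r of 0.97 in CEPT EB and 0.93 in Y27 EB.

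Other genes of the panel varied with ISL1 or NR2F1 from library to library. Likeness was measured as Pearson's r over 32 embryoid body libraries with the mean of each arm taken off, for 333 genes with a mean of at least 50 reads, and is a description because the points share library, depth and scaling. The middle 90% of genes lay between -0.59 and 0.53 for ISL1 and between -0.60 and 0.72 for NR2F1.

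The genes most like ISL1 were NEUROD1, a transcription factor of differentiating neurons and endocrine cells (r 0.91), GAP43, a growth cone protein (0.82), VASH2, an enzyme that removes tyrosine from tubulin (0.80), SYP, a synaptic vesicle protein (0.75), and GADD45G, a stress-inducible gene (0.74). NEUROD1 was close to ISL1 in both arms (r 0.88 in CEPT EB and 0.95 in Y27 EB). With its probes summed, NEUROD1 levels ran between 1200 and 3087 CPM with CEPT and between 1777 and 3216 CPM with Y-27632. In CEPT EB replicate 13, ISL1 and NEUROD1 each had their highest level of that arm. The lowest values were those of CLU, a secreted chaperone (-0.77), CYP26A1, which degrades retinoic acid (-0.74), and YAP1, a transcriptional coactivator (-0.73). With library totals alone as scaling these became -0.27 for CLU, -0.57 for CYP26A1 and, with the opposite sign, 0.17 for YAP1. NEUROD1 ranked first under library totals, median-ratio factors and without CEPT EB replicate 13 and Y27 EB replicate 15, with r from 0.90 to 0.95.

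The genes most like NR2F1 were IGFBP5, a binding protein of insulin-like growth factors (r 0.91), SOX10, a neural crest and glial transcription factor (0.90), MAT2A, which makes S-adenosylmethionine (0.90), RBM12, an RNA-binding protein (0.88), and NR2F2 (0.83). SOX10 was close to NR2F1 in both arms (r 0.90 in CEPT EB and 0.91 in Y27 EB), with levels between 814 and 1634 CPM and between 986 and 2163 CPM in these arms. NR2F2 had r 0.81 with NR2F1 in CEPT EB and 0.93 in Y27 EB, while its r with ISL1 over the 32 libraries was -0.38. The lowest values were those of RPS19 (-0.80), TMSB10 (-0.78) and EEF1A1 (-0.78), which are genes of the ribosome, of actin binding and of translation with very many reads. RPS19 alone reached 61267 to 213621 CPM in CEPT EB. NR2F1 also had r 0.66 with the log2 scaling factor of the library, SOX10 0.63 and ISL1 0.02, and the part of this in the likeness was not tested. The 5 genes kept r of at least 0.79 with NR2F1 under both other scalings and without CEPT EB replicate 13 and Y27 EB replicate 15.

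**Figure D5:**
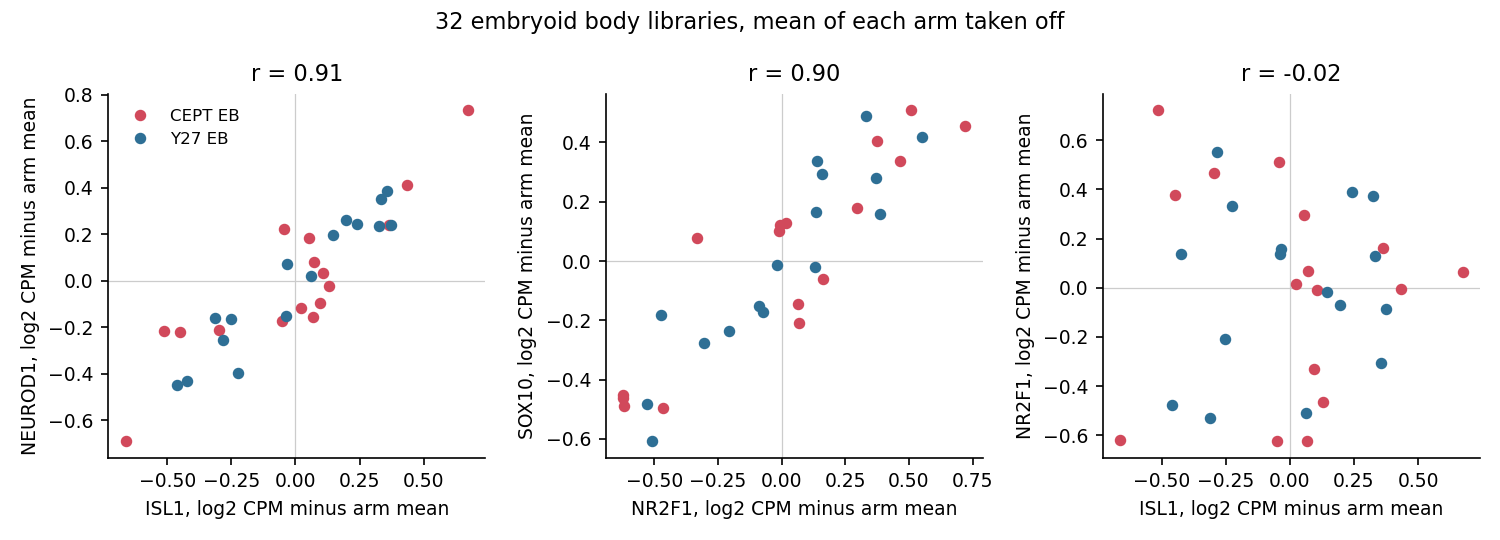
Log2 CPM minus the arm mean in 32 embryoid body libraries (points, by arm) for ISL1 and NEUROD1, NR2F1 and SOX10, and ISL1 and NR2F1. The first 2 pairs rise together with r of 0.91 and 0.90, and the last shows no slope with r of -0.02.

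Across the 6 group means, the genes most like ISL1 were S100A1 (r 0.99), WWTR1 (0.98), SLC6A3 (0.96), NBN (0.96) and CDH6 (0.95), and among those most like NR2F1 were POU3F3 (1.00), FUT8 (0.99), ABCA5 (0.98) and NRCAM (0.97). S100A1, a calcium-binding protein, had a median of 788 CPM in CEPT EB and 763 CPM in Y27 EB against 14.1 CPM in hESC. POU3F3, a neural POU factor, had medians of 22.3 and 26.2 CPM in the arms, 4.03 CPM in ectoderm and at most 0.39 CPM in the other groups. With 6 points, 2 of them embryoid bodies, these values describe largely a shared contrast of embryoid bodies with the rest. For NR2F1 and the genes named as most like it, ectoderm came next after the arms. NRCAM had a mean log2 CPM of 5.77 in ectoderm against 6.62 in CEPT EB, and ABCA5 had 5.16 against 6.61. ISL1 and NR2F1 had r 0.84 with each other on this measure.

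Genes of the pathways and cell types in which the 2 factors act were read from lists. In the comparison of the arms, 9 of 19 tested probes of neural crest genes were called, all lower in CEPT EB, where 13% of all probes were called lower. These 9 probes belonged to 4 of the 8 genes tested. The median log2 fold change of the 19 probes was -0.38, against -0.04 over all probes. The called genes were SOX10 (probe 685, -0.66 ± 0.10, SE, adjusted p 6.73e-06), SNAI2, which drives crest delamination (probe 678, -0.51 ± 0.13, adjusted p 0.00379), PAX3, a crest and dorsal neural tube factor (probe 539, -0.50 ± 0.11, adjusted p 0.000607), and FOXD3, named outside the rule because it was the remaining called gene. Between 7 and 15 probes of the list were called lower in each of the alternative settings with probe-level values, and 1 was higher without the filter and in the fit of all 48 libraries. The summed level of the list was 3589 to 5267 CPM in CEPT EB and 4070 to 6945 CPM in Y27 EB, and its part in the difference of NR2F1 and ISL1 was not tested.

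Of the sensory and motor neuron genes, 6 of 19 tested probes were called, 5 lower and 1 higher in CEPT EB. These probes belonged to 3 of the 10 genes tested. Over all probes 23.6% were called, 13% lower and 10.6% higher in CEPT EB. The median log2 fold change of the 19 probes was -0.15. OLIG2, a factor of motor neuron and oligodendrocyte progenitors, was lower (probe 534, -0.96 ± 0.19, adjusted p 0.000417, edgeR), and so was NEUROD1 (probe 501, -0.48 ± 0.13, adjusted p 0.00783). For SST, the peptide hormone somatostatin, only 1 probe was called, and it was higher (probe 1147, 0.69 ± 0.18, adjusted p 0.00383). This call was lost with library totals alone and with reference genes. Mean levels of that SST probe alone, scaled over the embryoid body libraries, were 6792 CPM in CEPT EB and 4201 CPM in Y27 EB. With all its probes summed, SST had a mean log2 CPM of 13.3 in CEPT EB and 12.8 in Y27 EB, scaled over all 48 libraries. NEUROD1 and SST account for all 3 calls among the 5 tested probes of the pancreatic endocrine list. Of its other panel genes, NKX2-2 and FOXA2 stayed at medians of 0 to 0.73 CPM in the arms. PAX6 reached a mean log2 CPM of 4.12 with CEPT and 2.68 with Y-27632, against -0.47 for undifferentiated cells. Its levels in ectoderm (9.87) and endoderm (7.50) were higher still.

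Of the neural progenitor and forebrain genes, 6 of 29 probes were called, 3 in each direction, which is near the 23.6% called over all probes. Among them were OTX2, higher (probe 948, 1.21 ± 0.27, adjusted p 0.00128, edgeR), CDH2 (probe 98, -0.32 ± 0.08, adjusted p 0.00300) and SOX2 (probe 695, -0.29 ± 0.10, adjusted p 0.0378). The SOX2 call was lost on leaving out 1 library in 18 of 32 fits (adjusted p up to 0.101) and with median-ratio factors (-0.20, adjusted p 0.186), upper-quartile factors, DESeq2 and 3 other settings. It was the only call among 19 pluripotency probes, of which 0 were lower and 1 was higher with median-ratio factors, upper-quartile factors and DESeq2. One of 9 probes for nuclear receptors and retinoic acid genes was called lower, in NR4A2, and 1 of 2 tested probes of LIM-homeodomain genes was called higher, in LHX1. The LIM-homeodomain list had no call with library totals alone, with reference genes or without the filter. The cardiac list had no call with the replicate block. These calls in NR4A2 and LHX1, with the single call in 12 cardiac probes, in NPPB, had under 50 reads on average and were named after their values were seen.

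Cardiac and second heart field genes, which could accompany ISL1 in heart progenitors, were low in most embryoid bodies. Their summed level was 38.0 to 569 CPM in CEPT EB and had a median of 86.2 CPM in Y27 EB, with 1 library at 4590 CPM. That library, Y27 EB replicate 15, had 3789 CPM of HAND1, 152 of GATA6 and 176 of TNNT2, each the highest of its arm. Its ISL1 level was 1804 CPM with both probes summed, within the 1541 to 2778 CPM of the other 15 Y27 EB libraries. The neuronal genes TUBB3 and DCX had medians of 10072 and 577 CPM in CEPT EB and 11937 and 544 CPM in Y27 EB. They were taken from a list of 11 such genes on the panel. TUBB3 was also high elsewhere, at a mean log2 CPM of 10.8 in hESC and 11.5 in endoderm. MAP2 of that list was at 7.71 in CEPT EB and 7.81 in Y27 EB, below 9.58 in ectoderm. In the cardiac list, MEF2C was at 4.75 and 4.69 in these arms and 0.0716 in hESC. Which cells carried ISL1 was not tested.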

How the data were processed

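RASL-Seq libraries of 6 groups were analysed. The authors deposited raw read counts per probe pair, made with a custom aligner per the series' design text. The submitters' processing notes also name hg38 and DESeq2, with no role stated. The merged table equalled the single library tables for all 48 columns used, and 16 other columns matched no label and were not used. Groups came from the titles. The genes, their lists and the tests were chosen with earlier results of these data known. Library totals ranged from 379810 to 5577868 reads (median 3583316), and reads carry no molecular identifiers, so intervals cover counting error only.

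Counts were filtered with filterByExpr, scaled with TMM and tested per probe with edgeR 4.0.16 (robust quasi-likelihood fit, R 4.3.3), with Benjamini-Hochberg adjustment over all tested probes. The embryoid body arms and the 3 lineages were fitted separately. DESeq2 1.42.0, other scalings and filters, summed probes, a replicate block and leaving out libraries were alternatives. Log2 CPM used a prior count of 2, and read ratios a pseudocount of 1. Ratios and correlations were tested by two-sided permutation with 100000 resamples (scipy 1.17.1). Floors took 3 reads in each library. From each list, called probes with at least 50 reads on average were named by size, 1 per gene and at most 3. Genes like ISL1 or NR2F1 were the 5 highest and 3 lowest r over embryoid bodies and the 5 highest over group means, of which 1 is not reported here. On simulated counts of the arm comparison (832 probes tested), 88.2% of 2-fold and 94.6% of 4-fold changes were recovered, and 2.30% of calls were false. Changes under 2-fold, such as those of ISL1 and NR2F1 between the arms, were not simulated. No pair of libraries agreed within sampling noise, with a lowest chi-square per degree of freedom of 4.93.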

Additional observations from a re-analysis of the deposited data

How the results depend on the processing

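In the comparison of CEPT EB with Y27 EB, the count of called probes went from 205 to 339 with library totals alone, 439 with reference genes and 112 genes with probes summed per gene, and was 168 to 219 on leaving out 1 library. The share of calls that were higher in CEPT EB was 44.9%, but 58.8% with median-ratio factors, 60.5% with DESeq2, 14.2% with library totals and 7.97% with reference genes. ISL1 probe 395 lost its call with median-ratio factors (-0.25, adjusted p 0.125), upper-quartile factors (-0.29, 0.0930), at least 10 reads in every library (-0.26, 0.0891), all 48 libraries in 1 fit (-0.32, 0.0854), probes summed per gene (-0.30, 0.0574), DESeq2 (-0.25, 0.116) and the replicate block (-0.35, 0.0678). ISL1 probe 396 gained a call with library totals (-0.56, 0.00201), reference genes (-0.71, 0.000842) and without CEPT EB replicate 13 and Y27 EB replicate 15 (-0.33, 0.0199). NR2F1 gained one with library totals (-0.55, 0.0181) and reference genes (-0.72, 0.00485). Leaving out 1 library gave -0.38 to -0.28 for probe 395, -0.30 to -0.20 for probe 396, called without Y27 EB replicate 11 or CEPT EB replicate 13, and -0.28 to -0.18 for NR2F1, never called. The replicate block gave 167 calls. Replicate numbers gave no sign of pairing between the arms. Of 16 correlations of same-numbered libraries 2 were over 0.1, and no library correlated best with its own number. The labels do not say whether same-numbered libraries were paired, and such correlations cannot settle it. Among the lineages, 10 of 12 such correlations were over 0.1, and they ran from 0.055 to 0.674 with a median of 0.168. Whether this exceeded libraries of different numbers was not tested. The main lineage fits had no block, and the block changed no lineage call of a member.

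Among lineages, called probes fell to 432, 439 and 420 (ectoderm with mesoderm, ectoderm with endoderm, mesoderm with endoderm) with at least 10 reads in every library, where no member was tested, and to 332, 327 and 316 genes with probes summed. NR2F1 between mesoderm and endoderm lost its call with library totals (-1.35, adjusted p 0.0723) and ranged from -3.08 to -1.45 on leaving out 1 library. The correlation of ISL1 with NR2F1 became 0.45 in CEPT EB and 0.64 in Y27 EB with library totals, and -0.061 in Y27 EB with median-ratio factors. Leaving out 1 library gave -0.40 to 0.067 in CEPT EB, above 0 without replicate 15, and -0.023 to 0.29 in Y27 EB, below 0 without replicate 11. The ratio of ISL1 to NR2F1 differed between arms by -0.11 to 0.032 on leaving out 1 library, above 0 without CEPT EB replicate 3, 8 or 15. The r of ISL1 with YAP1 turned to 0.17 with library totals.

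Mean CPM in Y27 EB moved by more than 1 SD with library totals and reference genes, to 1424 and 1511 for ISL1 probe 395, 1267 and 1340.0 for probe 396 and 1291 and 1382 for NR2F1. ISL1 probe 396 in endoderm was 12.4 with upper-quartile factors and 9.74 with library totals, and NR2F1 in ectoderm was 25.8 with median-ratio factors and 25.6 with reference genes. The remaining 155 alternative values of comparisons and 152 of single genes counted as unchanged. For tests this meant the same direction and side of the threshold. For mean CPM it meant a shift under 1 SD, and for call counts and likeness r a shift within a set limit. In contrast, 9 single gene calls were lost, 6 of SOX2, 2 of SST and 1 of CDH2. Depth limits the hESC and directed lineage values of both genes, most of which rest on fewer than 100 reads per group.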
